A study of Mus musculus with 10 samples.

Results

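Disaccharidases and alkaline phosphatases are enzymes of the brush border, the layer of microvilli on the surface of absorptive enterocytes. The 7 genes described here were taken by symbol from the deposited counts of 36401 genes: Lct (lactase), Sis (sucrase-isomaltase), Mgam (maltase-glucoamylase), Treh (trehalase), Alpi and Akp3 (intestinal alkaline phosphatases) and Alpl (the tissue-nonspecific alkaline phosphatase). All 7 passed the filter on low counts.

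Disaccharidases split dietary disaccharides and starch fragments into monosaccharides that enterocytes can take up. Alkaline phosphatases remove phosphate groups from many substrates, among them bacterial lipopolysaccharide, and are held on the cell surface by a glycosylphosphatidylinositol (GPI) anchor. In mice, lactase is made mainly in the jejunum and little in the ileum, and the transcription factor GATA4 is a known regulator of that pattern. In the mouse gut, Akp3 is known as an enzyme of the duodenum, while Alpi is made along the small intestine.

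Each library came from a male C57Bl6 mouse and is labelled as terminal ileum. In the VSG group (n = 5), vertical sleeve gastrectomy removed most of the stomach and the mice then ate ad libitum. In the SPF group (n = 5), the mice had sham surgery and were pair-fed. Both groups had eaten a high fat diet (60 kcal % fat) for 6 weeks, were operated on at 8 weeks of age and received the liquid diet Osmolite over 4 perioperative days. Tissue was taken about 8 weeks after the operation, when mice fasted overnight had been given 0.5 mL Osmolite by gavage 1 hour earlier. The labels describe each library as an ileal sample of 1 mouse and name no pools.

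Total counts per library ran from 15364651 to 34058181. Levels below are CPM, counts scaled to a common library size with TMM factors, listed for libraries 1 to 5 of each group. Gata4 stood at 1.72, 120.9, 6.28, 5.63 and 5.00 CPM in VSG libraries and at 1.95, 109.5, 2.76, 183.5 and 3.04 CPM in SPF libraries. VSG 2, SPF 2 and SPF 4 therefore stood apart, at 109.5 to 183.5 CPM against 1.72 to 6.28 CPM in the other 7. They also went against the ileal label. Fabp6, which binds bile acids in ileal enterocytes, had 39.0 to 62.1 CPM in these 3 libraries and 2558 to 6112 CPM in the other 7. All 5 ileal enterocyte markers were lower in the 3 libraries than in the 7 without overlap, as were 5.64% of all genes tested. Their summed levels were 352.6 to 538.5 CPM against 4171 to 8984 CPM. Fold changes of the 7 genes and counts of the gene lists are given with and without these libraries.

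Promoter sequence is shown for the genes whose window holds GATAA, a form of the GATA motif. The windows are the 250 bases before the RefSeq start on GRCm38.p6, read 5′ to 3′ on the strand of the gene, and the motif searched was GATAA on either strand (TTATC on the other). Capitals mark each match. The Lct window is chr1:128328319-128328568 on the minus strand, and the Mgam window is chr6:40628581-40628830 on the plus strand.
Lct: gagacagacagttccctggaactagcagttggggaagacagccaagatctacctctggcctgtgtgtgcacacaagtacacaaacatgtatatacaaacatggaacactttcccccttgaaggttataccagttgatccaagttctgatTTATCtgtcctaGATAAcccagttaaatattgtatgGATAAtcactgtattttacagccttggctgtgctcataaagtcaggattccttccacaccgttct
Mgam: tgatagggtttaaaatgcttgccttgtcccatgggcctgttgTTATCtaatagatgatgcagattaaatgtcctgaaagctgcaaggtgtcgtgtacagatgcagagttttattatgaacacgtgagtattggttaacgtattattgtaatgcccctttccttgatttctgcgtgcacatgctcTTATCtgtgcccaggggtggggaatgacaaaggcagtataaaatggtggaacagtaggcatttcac
Lct had 3 matches, which began at -101, -89 and -65 from the start, and Mgam had 2, at -208 and -66. The windows of Sis, Treh, Alpi, Akp3 and Alpl had no GATAA. Other forms of the GATA motif were not searched, so these windows are not shown to lack it. Of 32851 RefSeq promoter windows of this length, 22.6% held at least 1 match, 4.28% at least 2 and 0.712% at least 3. The motif TTTAT was also searched, on either strand: Sis had 4 matches, Lct and Mgam 2 each, Alpi 1, Alpl 1 in 1 of its 2 windows, and Treh and Akp3 none. At least 1 was in 37.3% and at least 2 in 14.3% of all windows, and the Lct match at -102 overlaps the GATAA match at -101. A match is a description of the sequence and not a measured site.

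Alpi and Akp3 are related genes on chromosome 1, and their sequences are shown because reads of one could be assigned to the other. Both promoter windows, with runs of 10 or more shared bases in capitals, are as follows, with Alpi at chr1:87101607-87101856 on the minus strand and Akp3 at chr1:87124704-87124953 on the plus strand (RefSeq, GRCm38.p6).
Alpi: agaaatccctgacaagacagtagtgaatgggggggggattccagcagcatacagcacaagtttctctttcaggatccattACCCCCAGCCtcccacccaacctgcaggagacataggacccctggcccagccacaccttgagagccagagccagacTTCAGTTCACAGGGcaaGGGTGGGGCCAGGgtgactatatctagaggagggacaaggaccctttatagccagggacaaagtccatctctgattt
Akp3: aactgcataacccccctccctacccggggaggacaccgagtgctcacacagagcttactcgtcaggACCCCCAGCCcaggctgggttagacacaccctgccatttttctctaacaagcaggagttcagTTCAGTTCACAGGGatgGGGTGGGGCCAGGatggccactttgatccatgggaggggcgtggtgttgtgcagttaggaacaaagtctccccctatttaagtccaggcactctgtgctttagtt
The shared runs covered 37 bases. In the transcripts (GENCODE M21) 2 coding stretches longer than a 50-base read were identical, of 68 and 65 bases.
Alpi and Akp3, the longer stretch: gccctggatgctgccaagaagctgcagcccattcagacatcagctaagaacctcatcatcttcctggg
Alpi and Akp3, the shorter stretch: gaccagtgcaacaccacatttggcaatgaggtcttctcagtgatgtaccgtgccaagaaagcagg
Identical 50-base windows numbered 35, which is 1.53% of the 2288 Alpi windows and 2.15% of the 1631 Akp3 windows. Allowing 2 mismatches, 154 windows matched, or 6.73% and 9.44%. Alpl shared no such window with Alpi or Akp3, and Sis shared none with Mgam. The sources used here do not give the rule by which such reads were assigned, so Akp3 counts at or near a fixed share of Alpi are uncertain as Akp3.

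Per kilobase of transcript, mean levels over the 10 libraries ran in the order Sis (573.7 CPM per kb), Alpi (433.5), Mgam (387.2), Treh (126.2), Lct (101.0), Akp3 (19.9) and Alpl (0.489). The ranges of Sis, Alpi and Mgam overlapped, at 198.3 to 969.8, 149.4 to 1019 and 143.9 to 633.6 CPM per kb, so their order is not set beyond the spread between libraries. The mean of Lct rested on the 3 libraries of high Gata4, at 235.0 to 428.0 CPM per kb there against 0.602 to 3.99 in the other 7. Treh stood at 211.1 to 321.8 CPM per kb in those 3 libraries and at 39.5 to 90.1 in the 7.

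**Figure D1:**
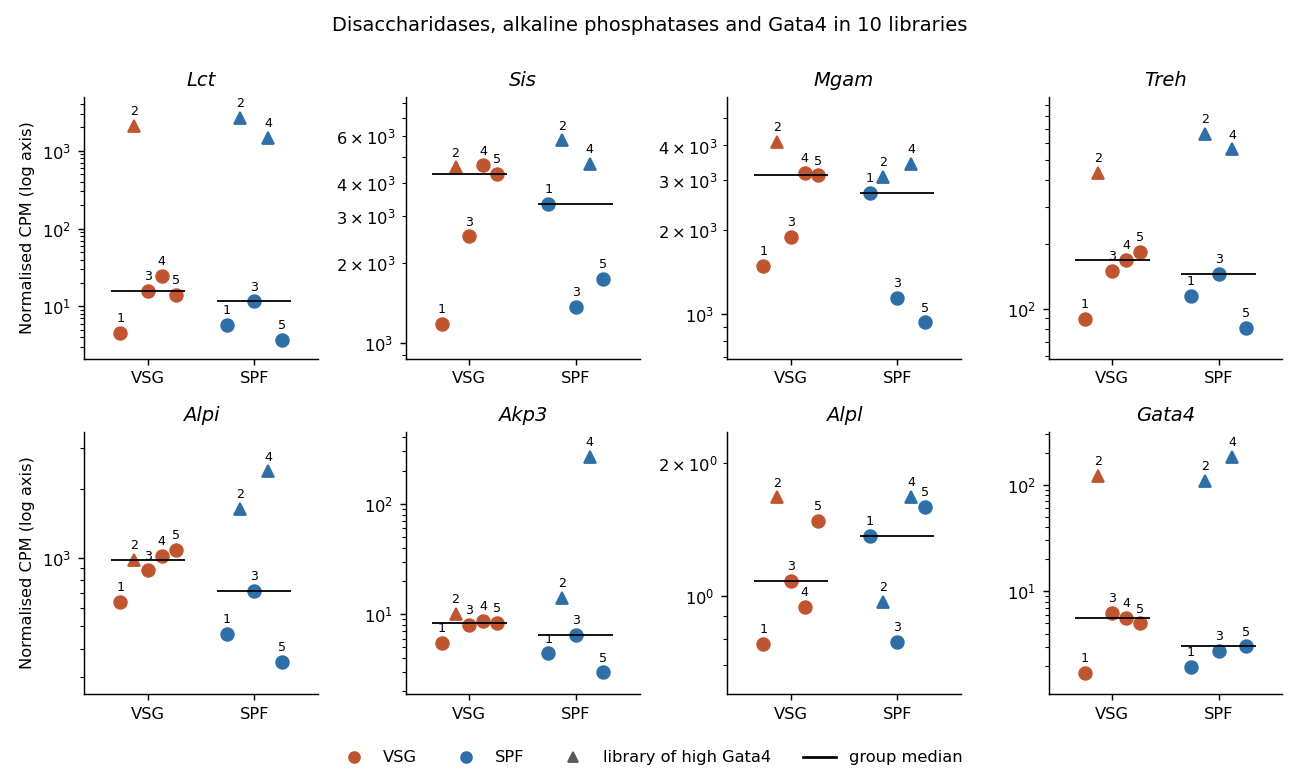
Level of each of the 7 genes and of Gata4 (normalised CPM, log axis) in every library, numbered by replicate, VSG left of SPF, with group medians as lines and the 3 libraries of high Gata4 as triangles. VSG and SPF libraries overlap for every gene, and Lct ranges from 3.72 to 2643 CPM.

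Lactase splits milk sugar into glucose and galactose. Lct (ENSMUSG00000026354) stood at 4.61, 2065, 15.8, 24.7 and 14.0 CPM in VSG libraries and at 5.82, 2643, 11.6, 1451 and 3.72 CPM in SPF libraries. Each group held libraries of at most 24.7 CPM and libraries of at least 1451 CPM, and the groups overlapped. Lct averaged 424.7 ± 916.7 CPM in VSG and 822.9 ± 1194 CPM in SPF (SD, n = 5 each), with a log2 fold change of -0.95 and a 95% interval of -5.28 to 3.38 (edgeR adjusted p = 0.985).

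Sucrase-isomaltase and maltase-glucoamylase are paired enzymes that finish the digestion of starch, and sucrase-isomaltase also splits sucrose. Sis (ENSMUSG00000027790) stood at 1180.3, 4568, 2514, 4652 and 4322 CPM in VSG libraries and at 3330.1, 5773, 1366, 4712 and 1735 CPM in SPF libraries. Mgam (ENSMUSG00000068587) stood at 1485, 4111, 1889.8, 3201 and 3125 CPM in VSG libraries and at 2705, 3092, 1139, 3439 and 933.5 CPM in SPF libraries. VSG 1, SPF 3 and SPF 5 were the lowest libraries for both genes, and the groups overlapped. The log2 fold changes were 0.03 for Sis (95% interval -1.02 to 1.07, edgeR adjusted p = 0.999) and 0.29 for Mgam (-0.63 to 1.21, edgeR adjusted p = 0.977).

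The Sis and Mgam profiles were the nearest to each other of all pairs among the 7 genes, with a root mean square difference of 0.34 on the log2 scale. Sis was above Mgam per kilobase in 9 of 10 libraries, at ratios of 0.866 to 1.58 in VSG libraries and 1.31 to 2.03 in SPF libraries. Markers of all enterocytes were also lowest in SPF 5, at a summed 5970.4 CPM, where smooth muscle markers were highest, at a summed 2821 CPM. SPF 3 lay in the middle of the enterocyte sums and had the lowest smooth muscle sum. VSG 1 had an enterocyte sum of 11567 CPM. The enterocyte sum of SPF 1 was lower than those of VSG 1 and SPF 3, at 8567 CPM, but Sis and Mgam were higher there. Over all libraries these sums ran from 11567 to 17914 CPM (enterocyte) and from 559.8 to 1191 CPM (smooth muscle) in VSG, and from 5970.4 to 19066 CPM and 222.8 to 2821 CPM in SPF. All 4 enterocyte and all 5 smooth muscle markers were detected, and the part of tissue make-up in the Sis and Mgam values was not tested. In bulk tissue, fewer enterocytes and less RNA per enterocyte cannot be told apart.

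Trehalase splits trehalose, a sugar of fungi and insects, and is GPI-anchored. Treh (ENSMUSG00000032098) stood at 89.0, 432.2, 150.8, 169.1 and 184.5 CPM in VSG libraries and at 114.7, 659.0, 145.7, 558.2 and 80.9 CPM in SPF libraries. VSG 2, SPF 2 and SPF 4 were the highest, and the groups overlapped. Treh averaged 205.1 ± 132.0 CPM in VSG and 311.7 ± 274.3 CPM in SPF (SD, n = 5 each), and the log2 fold change was -0.60 (95% interval -1.97 to 0.76, edgeR adjusted p = 0.977).

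Alpi (ENSMUSG00000079440) stood at 642.2, 975.0, 878.5, 1016 and 1079 CPM in VSG libraries and at 464.9, 1633, 713.6, 2380.4 and 349.1 CPM in SPF libraries. The SPF libraries spread over a wider range than the VSG libraries and enclosed it, with SDs of 170.6 CPM in VSG and 871.7 CPM in SPF. The log2 fold change was -0.27 (95% interval -1.32 to 0.78, edgeR adjusted p = 0.983).

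Akp3 (ENSMUSG00000036500) stood at 5.47, 9.98, 7.97, 8.66 and 8.28 CPM in VSG libraries and at 4.42, 14.2, 6.54, 265.2 and 2.97 CPM in SPF libraries. SPF 4 alone exceeded 100 CPM, and without it the groups overlapped within 2.97 to 14.2 CPM. The log2 fold change of -2.86 (95% interval -5.42 to -0.29, edgeR unadjusted p = 0.0322, adjusted p = 0.977) was 0.22 without SPF 4. Onecut2 and Pdx1, transcription factors of the upper small intestine, were also highest in SPF 4, at 137.1 and 14.5 CPM. Of the 7 markers of the upper small intestine, Gata4 is the gene by which VSG 2, SPF 2 and SPF 4 were set apart. Onecut2, Adh6a and Gip were also higher in these 3 libraries without overlap with the other libraries, as were 6.08% of all genes tested. Cybrd1 (5.01 to 5.75 CPM against 3.58 to 7.05 CPM) and Pdx1 (0.0323 to 14.5 CPM against 0 to 0.354 CPM) overlapped, and Slc40a1, an iron exporter, went the other way, at 3.68 to 13.6 CPM against 35.8 to 98.3 CPM.

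As a share of the Alpi count, Akp3 was 0.852%, 1.02%, 0.903%, 0.852% and 0.767% in VSG libraries and 0.954%, 0.866%, 0.919%, 11.1% and 0.849% in SPF libraries. The 9 libraries other than SPF 4 lay at 0.887% ± 0.0737 (SD), while their Alpi levels ranged from 349.1 to 1633 CPM. Their Akp3 counts thus stood in a nearly fixed ratio to Alpi, and the part of the windows identical between both transcripts in those counts was not tested.

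**Figure D2:**
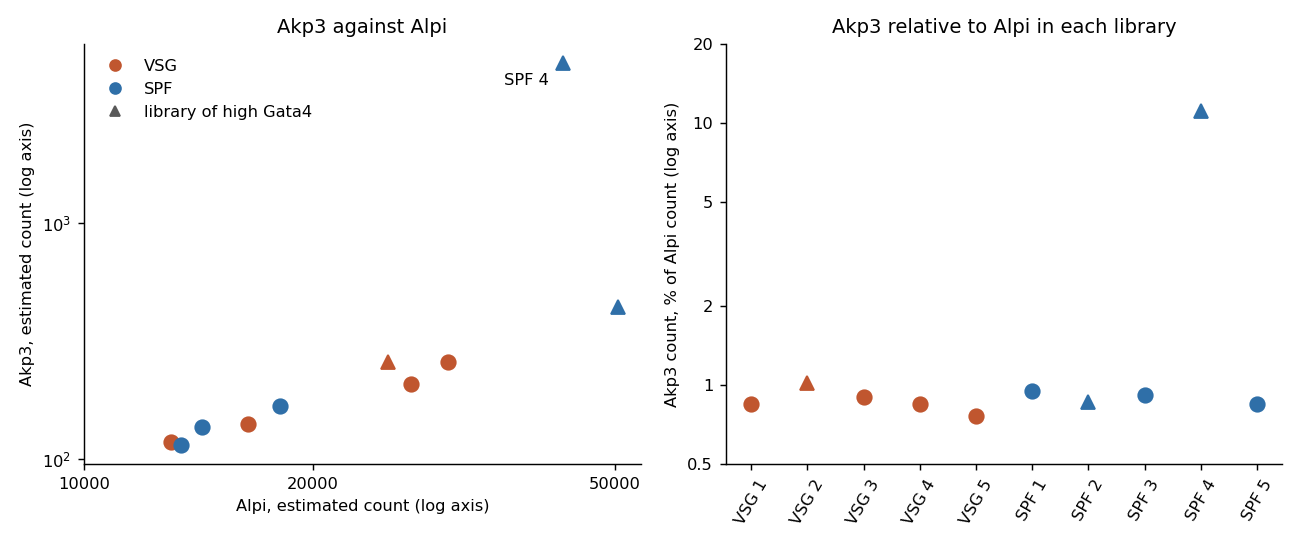
Left, Akp3 against Alpi (estimated counts, both axes logarithmic), and right, the Akp3 count as a percentage of the Alpi count (log axis), 1 point per library, VSG and SPF in different colours and libraries of high Gata4 as triangles. The Akp3 count is 0.767% to 1.02% of the Alpi count in 9 libraries and 11.1% in SPF 4.

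Alpl (ENSMUSG00000028766), known for its part in bone mineralisation, was low in every library. It stood at 0.781, 1.67, 1.08, 0.943 and 1.48 CPM in VSG libraries and at 1.36, 0.969, 0.788, 1.67 and 1.59 CPM in SPF libraries. The counts behind these levels ran from 16 (95% Poisson interval 9.15 to 26.0, counting error only) to 61.3, and the groups overlapped. The log2 fold change was -0.10 (95% interval -0.75 to 0.56, edgeR adjusted p = 0.99).

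Between VSG and SPF, 0 of the 7 genes were called at an adjusted p under 0.05, against 0% of the 15678 genes tested. None had groups that did not overlap, against 0.549% of all genes. At an unadjusted p under 0.05 there was 1, Akp3, against 3.8% of all genes, or 1.91% counting those lower in VSG. DESeq2 called none of the 6 members for which it gave a p, against 0.0702% of all genes, and gave no p for Akp3. Of the 7, 5 had lower and 2 had higher edgeR estimates in VSG, with a median log2 fold change of -0.27. Over all genes tested, 9105 had lower and 6573 higher estimates, with a median of -0.05. For Lct (15.8 against 11.6 CPM) and Treh (169.1 against 145.7 CPM), the group median was nevertheless higher in VSG than in SPF. The same held for Alpi (975.0 against 713.6 CPM) and Akp3 (8.28 against 6.54 CPM). The intervals of all members but Alpl include differences of more than 2-fold.

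Without VSG 2, SPF 2 and SPF 4, leaving 4 VSG and 3 SPF libraries, the estimates of Lct, Treh, Alpi and Akp3 changed sign. The log2 fold changes were then 1.08 for Lct (95% interval -0.19 to 2.35), 0.57 for Sis, 0.61 for Mgam, 0.39 for Treh, 0.83 for Alpi (0.17 to 1.49), 0.72 for Akp3 (0.02 to 1.41) and -0.22 for Alpl. Akp3 counts were 0.767% to 0.954% of Alpi in these libraries, so the Akp3 estimate is not separate from that of Alpi. The lowest adjusted p of the 7 was that of Alpi (edgeR unadjusted p = 0.0196, adjusted p = 0.645), with 0% of 15911 genes called and 6.96% at an unadjusted p under 0.05. In these 7 libraries Gata4 stood at 1.72, 6.28, 5.63 and 5.00 CPM in VSG and at 1.95, 2.76 and 3.04 CPM in SPF, and markers of all enterocytes summed to 15744 ± 2887 CPM in VSG (SD, n = 4) and 9537 ± 4138 CPM in SPF (SD, n = 3). All 4 enterocyte markers had higher estimates in VSG in this fit, with a median log2 fold change of 0.43, beside a median of 0.61 for the 7 genes and -0.05 for all genes tested. Smooth muscle markers summed to 559.8 to 1191 CPM in VSG and 222.8 to 2821 CPM in SPF, and all 5 had lower estimates in VSG (median -0.49). The part of Gata4 and of tissue make-up in the differences among these 7 libraries was not tested. With all 10 libraries and the log2 level of Gata4 as a covariate, the log2 fold changes were -0.11 for Lct, 0.24 for Sis, 0.42 for Mgam, -0.07 for Treh, 0.26 for Alpi, -0.47 for Akp3 and -0.08 for Alpl, and 0 of the 7 genes were called.

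**Figure D3:**
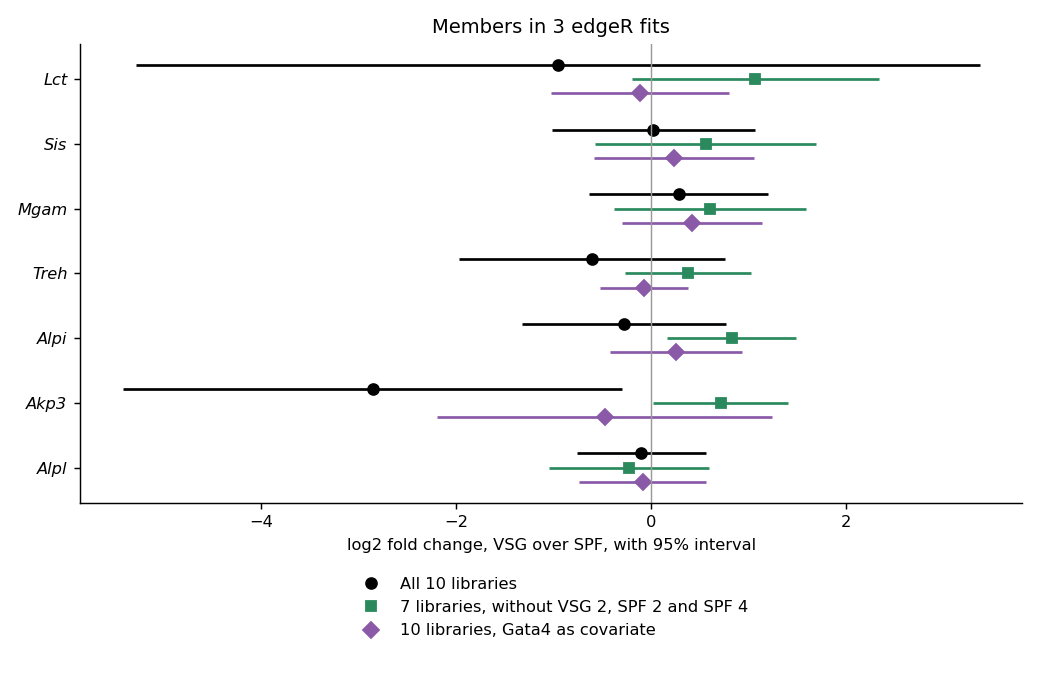
Log2 fold change, VSG over SPF, of the 7 genes with 95% intervals, in 3 edgeR fits: all 10 libraries (circles), without VSG 2, SPF 2 and SPF 4 (squares) and with Gata4 as covariate (diamonds). For Lct, Treh, Alpi and Akp3 the circles and squares lie on opposite sides of 0 (-0.95 and 1.08 for Lct, -2.86 and 0.72 for Akp3).

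Set against Gata4, 3 of the 7 genes (Lct, Treh and Akp3) did not overlap between the 3 libraries of high Gata4 and the other 7 and were higher in the 3, and 0 did not overlap and were lower. Over all genes tested the shares were 6.08% higher and 5.64% lower. These levels are a description, since the libraries were set apart by their Gata4 level. Lct stood at 1451 to 2643 CPM against 3.72 to 24.7 CPM, so that the lowest of the 3 was 58.8 times the highest of the 7. Treh stood at 432.2 to 659.0 CPM against 80.9 to 184.5 CPM, a ratio of 2.34 between the nearest libraries. Akp3 stood at 9.98 to 265.2 CPM against 2.97 to 8.66 CPM, with only 1.15 between the nearest. These were VSG 2 and VSG 4, with estimated counts of 257.3 and 257 (95% Poisson interval 226.5 to 290.4 for each, counting error only). In VSG 2 and SPF 2 the Akp3 count was 1.02% and 0.866% of that of Alpi, which overlapped. The separation of Akp3 is therefore uncertain as Akp3 outside SPF 4.

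Sis (4568 to 5773 CPM against 1180.3 to 4652 CPM) and Mgam (3092 to 4111 CPM against 933.5 to 3201 CPM) overlapped between the 3 libraries and the 7. Alpi overlapped as well, at 975.0 to 2380.4 CPM against 349.1 to 1079 CPM, and so did Alpl, at 0.969 to 1.67 CPM against 0.781 to 1.59 CPM. Relative to Sis, Lct counts were 30.8% to 45.8% in the 3 libraries and 0.175% to 0.851% in the 7. Treh counts were 9.46% to 11.8% of Sis in the 3 and 3.44% to 10.7% in the 7, so that this ratio overlapped. The summed goblet cell markers were 4059 to 8066 CPM in the 3 and 9952 to 13790 CPM in the 7, and markers of all enterocytes overlapped, at 9469 to 19066 CPM against 5970.4 to 17914 CPM.

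**Figure D4:**
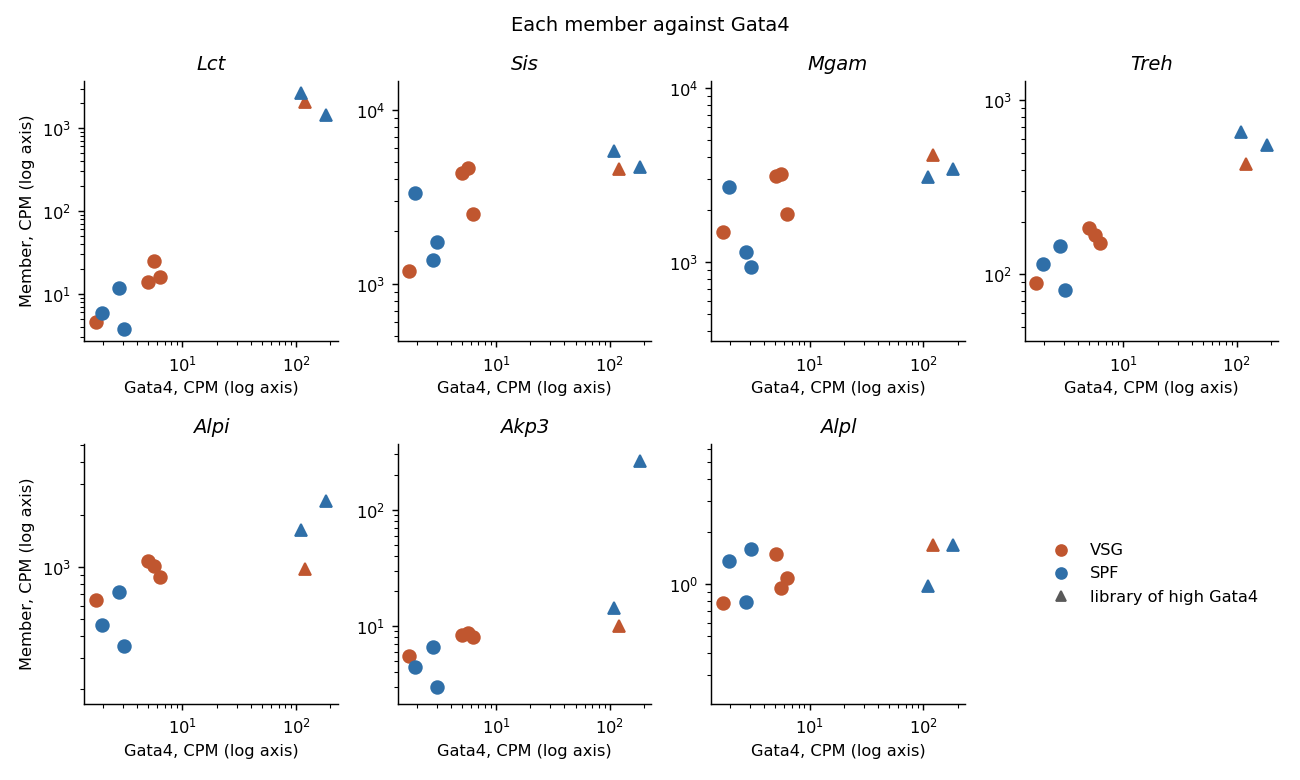
Level of each of the 7 genes (normalised CPM, log axis) against the Gata4 level (normalised CPM, log axis), 1 point per library, VSG and SPF in different colours and libraries of high Gata4 as triangles. Lct is 1451 to 2643 CPM in the 3 libraries of high Gata4 and 3.72 to 24.7 CPM in the other 7, while Sis, Mgam, Alpi and Alpl overlap.

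No correlation over the 10 libraries is given, because they form separate clusters by Gata4. Within the 7 libraries of low Gata4, Pearson's r of log2 levels with Gata4 was positive for all 7 genes. For Lct Pearson's r was 0.806 (exact two-sided permutation p = 0.0433, 0.211 adjusted over the 7 genes) and Spearman's rho was 0.75 (exact two-sided permutation p = 0.0663, 0.233 adjusted). For Treh r was 0.722, for Alpi 0.662, for Akp3 0.64 and for Sis 0.611 (each 0.211 to 0.213 adjusted, exact permutation). For Mgam r was 0.397 (0.409 adjusted) and for Alpl 0.18 (0.681 adjusted). Spearman's rho was 0.643 for Treh and Akp3, 0.607 for Alpi and Sis, 0.393 for Mgam and 0.321 for Alpl, with adjusted exact permutation p of 0.233 to 0.498. Without VSG 3 and VSG 4, the libraries farthest from the median Gata4 level, r was 0.63 for Lct, 0.648 for Treh, 0.551 for Sis, 0.492 for Alpi, 0.392 for Akp3, 0.233 for Mgam and 0.52 for Alpl with n = 5, so that the values of Akp3, Mgam and Alpl moved by more than 1.5 times. No relation passed after adjustment, and all rest on Gata4 levels of 1.72 to 6.28 CPM. The highest Gata4 levels of the 7 were all in VSG libraries (VSG 3, VSG 4 and VSG 5), while the lowest was in VSG 1. The permutations did not keep the groups apart, so the part of surgery in these values was not tested. Akp3 counts were 0.767% to 0.954% of Alpi in these libraries, so the r of Akp3 is not separate from that of Alpi.

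The genes with profiles nearest to each member were found by the root mean square difference of log2 CPM centred over the 10 libraries, among 14139 genes that averaged 1 CPM or more. For Lct they were Dnase1 (1.09), Cyp2b10 (1.15) and Enpp3 (1.20), at distances well below the 3.63 by which Lct itself varied. Cyp2b10, a cytochrome P450, stood at 50.6 to 103.9 CPM in the 3 libraries of high Gata4 and at 0.390 to 3.24 CPM in the 7. For Treh they were Cyp2d26 (0.21), Cdr2 (0.22) and Sec14l2 (0.24), and for Alpi they were Acad11 (0.23), Phospho1 (0.27) and Cbr1 (0.28).

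Btnl7, a butyrophilin-like gene, was nearest to both Sis (0.29) and Mgam (0.25). Next to Sis came Ppara (0.31), the nuclear receptor of fatty acid oxidation, and Osbpl3 (0.32), and next to Mgam came Synpo (0.27). For Akp3 the nearest were Papss2 (0.54), 9330176C04Rik (0.70) and Ces2g (0.71), which were all highest in SPF 4. Papss2, an enzyme that makes the sulfate donor of the cell, stood at 1681 CPM there. For Alpl the nearest were Gm15751 (0.16), Eng (0.17) and Pear1 (0.18), against 0.39 by which Alpl itself varied, and Eng and Pear1 are known from endothelium.

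Genes of related function gave 0 calls between VSG and SPF in every list, with all 10 libraries and without VSG 2, SPF 2 and SPF 4. Over all genes tested, 6573 had higher and 9105 lower estimates in VSG with all 10 libraries. Without the 3 libraries the numbers were 6869 and 9042. Of 10 tested genes of sugar uptake and fructose use, 1 had a higher and 9 a lower estimate in VSG, with a median log2 fold change of -0.41. Without the 3 libraries of high Gata4 this turned round, with 9 higher, 1 lower and a median of 0.52. Of these 10 genes, 8 did not overlap between the 3 libraries and the 7 and were higher in the 3, all but Slc2a5 and Dak, against 6.08% of all genes. Slc5a4b, of the sodium-glucose cotransporter family, stood at 71.5 to 392.8 CPM in the 3 and at 5.00 to 23.2 CPM in the 7, and Khk, ketohexokinase, at 291.6 to 468.5 CPM and 95.2 to 226.9 CPM.

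Of 11 other glycosidases, 4 had higher and 7 lower estimates in VSG (median -0.05), and of 9 other phosphatases 5 were higher and 4 lower (median 0.01), with the same counts without the 3 libraries. Of 16 other brush border hydrolases, 10 were higher and 6 lower (median 0.34), or 15 and 1 without the 3 libraries (median 0.46). Among the hydrolases, Nt5e, which makes adenosine outside the cell, had a log2 fold change of 1.04 (edgeR adjusted p = 0.977). Non-overlapping and higher in the 3 libraries of high Gata4 were 4 of the glycosidases, 1 of the phosphatases and 4 of the hydrolases, and non-overlapping and lower were 1, 0 and 2. The shares over all genes tested were 6.08% higher and 5.64% lower.

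Of 12 genes of the microvillus scaffold, 12 had higher estimates in VSG, with a median of 0.35, and 0.36 without the 3 libraries, where 12 were again higher. Eps8, which caps actin in microvilli, stood at 0.59 (edgeR adjusted p = 0.977). None of the 12 separated the 3 libraries from the 7, against 6.08% of all genes tested as higher and 5.64% as lower. The 4 markers of all enterocytes had higher estimates in VSG, with a median of 0.35, but Vil1 and Cdhr5 are in both lists. The markers of smooth muscle (5 of 5, median -0.57), fibroblasts (5 of 5, -0.30), endothelium (4 of 4, -0.30) and red blood cells (5 of 5, -0.53) had lower estimates. So did those of T cells (4 of 4, -0.44) and most of those of Paneth cells (3 of 4, -0.59). Other lists went the other way, with more markers higher in VSG. These were B cells and follicles (4 of 5, median 0.23), goblet cells (3 of 4, 0.07) and neutrophils (2 of 3 tested, 0.10). None of these markers was called, and the part of tissue make-up in the list medians was not tested.

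Of 17 transcription factors of enterocyte genes, 7 were higher and 10 lower (median -0.03), or 11 and 6 without the 3 libraries (median 0.21). The lowest p were those of Prdm1 (log2 fold change 0.46, edgeR unadjusted p = 0.0175) and Gata5 (0.48, edgeR unadjusted p = 0.0364), both with an adjusted p of 0.977. Of the 17, 5 separated the 3 libraries as higher and 1 as lower, against 6.08% and 5.64% of all genes tested. The 5 include Gata4, by which the 3 libraries were set apart. Of 5 genes that attach GPI anchors, 3 were higher and 2 lower (median 0.04), with the same counts without the 3 libraries (median 0.06), and 1, Pigu, separated the 3 libraries as lower. Hnf4g, a nuclear receptor of enterocytes, stood at 255.5 to 426.9 CPM in the 3 libraries of high Gata4 and at 111.4 to 246.4 CPM in the 7. Cdx1, a homeobox factor of the intestine, stood at 121.3 to 161.7 CPM in the 3 and at 208.5 to 397.1 CPM in the 7. Genes named here for their separation by Gata4 were chosen after their values were seen.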

How the data were processed

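RNA of 5 VSG and 5 SPF mice was read from Illumina TruSeq libraries as single-end reads of 50 bases, per the labels' protocols. For each gene and library the authors deposited estimated counts, in files named for RPKM whose values are on the scale of reads, with totals of 15364651 to 34058181 and 61.18% of values whole. They also deposited log2 values, which are log2 of the same counts after scaling each library, relative to the SPF median of the gene. The submitters' processing notes name mm9 and DESeq (no version). The aligner, the annotation and the treatment of reads that fit several genes are not given in the sources used here, nor whether strand was used, so antisense reads were treated as inseparable.

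After rounding the estimated counts, edgeR 4.0.16 in R 4.3.3 was run with filterByExpr, TMM factors and the quasi-likelihood F test on surgery alone, with Benjamini-Hochberg adjustment over all 15678 genes and a threshold of 0.05. Log2 CPM values have a prior count of 2. Intervals are at the 95% level and p-values set group differences against the spread between these animals. Promoters are from RefSeq on GRCm38.p6 and transcript lengths and windows from GENCODE M21, which are not the files' build, so no coordinates were taken from the files. Named genes are the 7 enzyme genes, Gata4, the 3 nearest genes of each by profile, of which 1 is not reported here, and list members by lowest p. The members and lists were chosen with earlier results of these data known. Alternatives were DESeq2 1.42.0, limma 3.58.1, other scaling, no filter, a replicate block, a Gata4 covariate and leaving out libraries. On counts simulated for this comparison over 15492 genes, 37% of 2-fold and 84% of 4-fold changes were recovered, with 6 false among 127 calls. The simulated counts spread around 1 mean per gene and group, without a separate cluster of 3 libraries. These shares therefore do not apply to Lct, Treh or Akp3, which separated VSG 2, SPF 2 and SPF 4 from the others. Their log2 fold changes had standard errors of 1.97, 0.62 and 1.17. The shares may also not hold for Alpi, whose estimate changed sign without these libraries.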

Additional observations from a re-analysis of the deposited data

Results flagged for a closer look

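Lct in VSG 2 stood apart from the other 4 VSG libraries on the log2 scale. The gap to its nearest neighbour was 0.727 of the whole VSG range, above Dixon's 95% critical value of 0.71. Its level was 2065 CPM, against 4.61 to 24.7 CPM in the other 4, and it is also the VSG library of high Gata4, at 120.9 CPM. Of 14 groups tested for such a library (7 genes in VSG and in SPF), this was the only one flagged, and chance flags about 1 in 20 groups.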

How the results depend on the processing

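In none of the alternatives run did a member pass the adjusted threshold, and of 133 alternative fold changes of the 7 genes 113 kept their direction and 20 reversed. edgeR and limma called 0 of all genes in each alternative and DESeq2 called 11, which include none of the 7. DESeq2 gave no p for Akp3. Leaving out VSG 2, SPF 2 and SPF 4 together reversed Lct (1.08), Treh (0.39), Alpi (0.83) and Akp3 (0.72). Alpi also reversed under limma-voom (0.029), limma on the deposited log2 values (0.10), the replicate block (0.078) and a Gata4 covariate (0.26), and Sis under upper quartile factors (-0.010). The cause was not tested. Akp3 moved to -0.43, -0.66, -0.38 and -0.47 under the same 4 fits as Alpi. Leaving out each library in turn gave -5.80 (without VSG 2) to 0.21 (without SPF 2) for Lct, -0.16 to 0.31 for Sis, 0.10 to 0.51 for Mgam, -1.07 to -0.13 for Treh, -0.49 to 0.24 (without SPF 4) for Alpi, -3.16 to 0.22 (without SPF 4) for Akp3 and -0.25 to 0.039 for Alpl. The lowest adjusted p over all alternatives was 0.359, for Akp3 without SPF 3. The labels do not say whether equal numbers mark pair-feeding partners. The correlation of same-numbered deviations ran from -0.418 to 0.363. It was highest for number 2, where both libraries are of high Gata4, and lowest for number 4, where only SPF 4 is. This check cannot tell feeding partners from libraries alike in Gata4, so it does not decide whether the numbers are pairs. The main fit did not treat them as pairs. The gene lists without VSG 2, SPF 2 and SPF 4 were added after seeing the data. Alpl is limited by depth, with 16 counts in its shallowest library.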

Other observations

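Alppl2, a further alkaline phosphatase gene known from germ cells and the embryo, was low in these libraries. It stood at 3.95, 4.62, 2.57, 1.99 and 2.44 CPM in VSG libraries and at 3.93, 7.50, 5.83, 5.13 and 4.16 CPM in SPF libraries. The VSG values were lower except for an overlap of VSG 2 with SPF 1 and SPF 5 and of VSG 1 with SPF 1, with a log2 fold change of -0.77 (edgeR unadjusted p = 0.0187, adjusted p = 0.977). As a share of the Alpi count it ranged from 0.197% to 1.19% over the 10 libraries, against 0.767% to 1.02% for Akp3 in the 9 libraries other than SPF 4. Alpi and Alppl2 shared 1 identical 50-base window and 77 within 2 mismatches.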
